A study of Mus musculus with 72 samples.

Results

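The Ugt2 glucuronosyltransferases followed here are encoded by the 8 mouse genes Ugt2a3, Ugt2b1, Ugt2b5, Ugt2b34, Ugt2b35, Ugt2b36, Ugt2b37 and Ugt2b38. Ugt2a1 and Ugt2a2, also Ugt2 genes, are not among them. The 8 genes were chosen by name, as the rows of the count table whose Ensembl identifier belongs to 1 of their symbols. This gave 8 of the 55573 genes listed. Their RNA was measured by sequencing in the livers of 72 adult male C57BL/6 mice, given as C57BL/6J in the study's methods. WT mice carried Bmal1 flanked by loxP sites (Bmal1 fl/fl), and LKO mice, named L-Bmal1-KO in the labels, carried the same alleles and Albumin-Cre, a Cre recombinase driven by the albumin promoter, which removes Bmal1, a core activator of the circadian clock, from hepatocytes. Both genotypes were kept either with a microbiota under specific pathogen-free conditions (SPF) or germ free (GF) in isolators. Each of the 4 conditions (WT or LKO, SPF or GF) had 3 mice at each of ZT2, ZT6, ZT10, ZT14, ZT18 and ZT22, where ZT counts hours from lights on, and hence 18 libraries.

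UDP-glucuronosyltransferases sit in the membrane of the endoplasmic reticulum and join glucuronic acid, taken from UDP-glucuronic acid, to small lipid-soluble molecules, so that these can leave the cell and pass into bile or urine. The Ugt2 enzymes act on steroid hormones, bile acids, fatty acids and many drugs, and hepatocytes hold most of them. Gut bacteria carry enzymes that split glucuronides again, which returns the freed molecule to the gut and, through the portal vein, to the liver.

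All 8 genes lie in 1 cluster on mouse chromosome 5, at chr5:86889767-87424203 of GRCm38, a span of 534437 bases with 26 annotated genes. These 8 are the protein-coding genes of the span, and 15 of the others are pseudogenes. From the lower coordinate upwards the order is Ugt2b34 (ENSMUSG00000029260, chr5:86889767-86906937), Ugt2b1 (ENSMUSG00000035836, chr5:86916638-86926530), Ugt2b35 (ENSMUSG00000035811, chr5:87000860-87013275), Ugt2b36 (ENSMUSG00000070704, chr5:87065927-87092555), Ugt2b5 (ENSMUSG00000054630, chr5:87124960-87140318), Ugt2b37 (ENSMUSG00000057425, chr5:87240493-87254804), Ugt2a3 (ENSMUSG00000035780, chr5:87324972-87337195) and Ugt2b38 (ENSMUSG00000061906, chr5:87409942-87424203). Ugt2b35 lies on the plus strand and the other 7 on the minus strand. No annotated gene overlapped any of the 8, so antisense or overlapping genes did not share their reads.

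Ugt2b5, Ugt2b38 and Ugt2b37 are near-identical copies. Over the longest open reading frame, 1593 bases in each, Ugt2b5 and Ugt2b38 were 97.05% identical and differed at 47 bases, Ugt2b5 and Ugt2b37 were 94.66% identical and differed at 85, and Ugt2b37 and Ugt2b38 were 94.1% identical and differed at 94. The longest run without any difference among the 3 was 118 bases, longer than the single-end reads. The 60 bases below, coding bases 1467 to 1526 in exon 6, hold the most differences that separate all 3 copies, and the capitals mark the 11 bases at which the copies are not all alike (GENCODE vM21 transcripts, GRCm38, minus strand, at chr5:87125280-87125339 for Ugt2b5, chr5:87410275-87410334 for Ugt2b38 and chr5:87240827-87240886 for Ugt2b37).
Ugt2b5: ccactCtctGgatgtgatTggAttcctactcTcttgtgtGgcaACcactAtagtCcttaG
Ugt2b38: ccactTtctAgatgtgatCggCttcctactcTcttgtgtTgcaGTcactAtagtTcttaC
Ugt2b37: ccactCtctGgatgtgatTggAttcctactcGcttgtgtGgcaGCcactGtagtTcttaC

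Reads with more than 1 possible origin were not counted, so a gene loses the reads that a copy could also have given. Of the 50-base windows of its transcripts, 41.7% of Ugt2b5, 37.4% of Ugt2b38 and 18.3% of Ugt2b37 also occurred in a transcript of another gene. The share was 4.55% for Ugt2a3, 1.44% for Ugt2b34, 0.303% for Ugt2b35, 0.285% for Ugt2b36 and 0 for Ugt2b1. Levels of Ugt2b5, Ugt2b37 and Ugt2b38 are therefore uncertain, and a read with a sequencing error can be placed on the wrong copy.

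**Figure D1:**
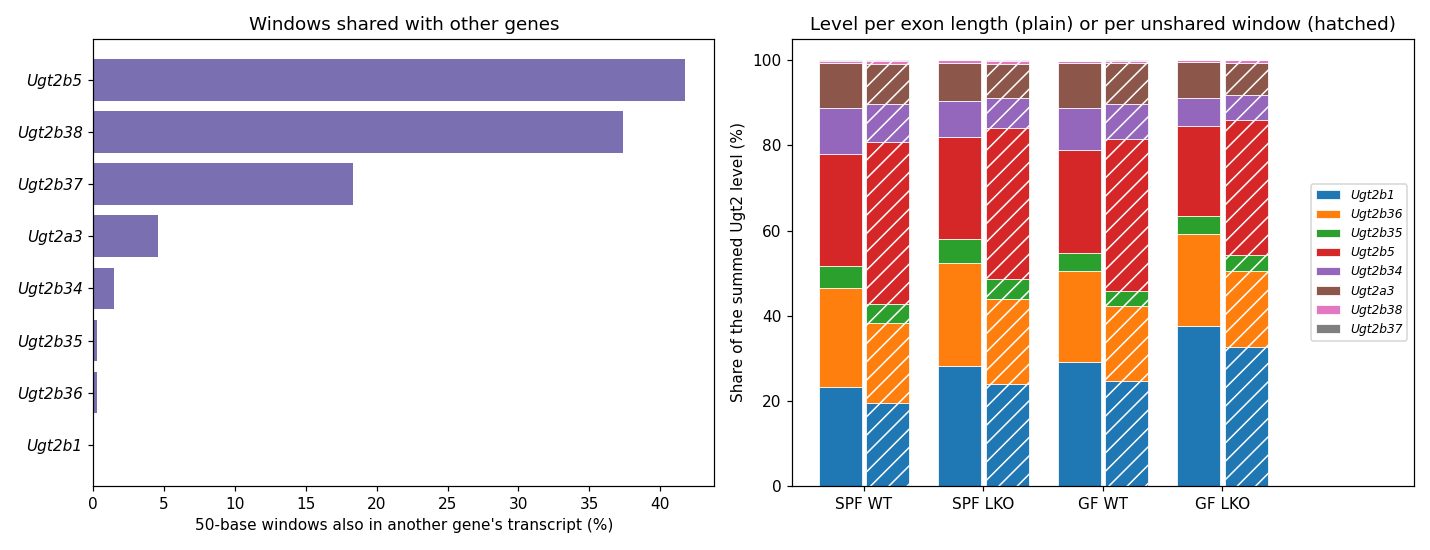
Left, the percentage of each gene's 50-base transcript windows that also occur in a transcript of another gene. Right, the share of each Ugt2 gene in the summed level of the 8 genes per condition (mean of 18 livers), with levels divided by exon length (plain bars) or by the number of windows found in no other gene (hatched bars). Ugt2b5 has the largest share of shared windows, and its part of the summed level of the 8 genes rises when these are left out, from 26.4% to 38.2% in SPF WT.

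The upstream sequences fall into like groups. RefSeq promoter windows (GRCm38.p6, 250 bases before to 50 after the start) matched all 8 genes. Over the bases that aligned without a gap among the 250 before the start, Ugt2b37 and Ugt2b38 were 95.3% identical (236 bases). Ugt2b5 and Ugt2b38 were 88.3% identical (240 bases) and Ugt2b5 and Ugt2b37 88.0% (226 bases). The stretches below are shown for those 3, for Ugt2b36, whose level followed that of Ugt2b5 most closely, and for Ugt2b1, which changed in all 4 comparisons. Each is 100 bases, 5′ to 3′, and ends just before the more upstream of the RefSeq and GENCODE starts. Capitals mark the nuclear receptor half-site AGGTCA and, in Ugt2b1, the D-box TTATGNAA, which is read there from the other strand. The stretches lie on the minus strand at chr5:87140341-87140440 (Ugt2b5), chr5:87424204-87424303 (Ugt2b38), chr5:87254805-87254904 (Ugt2b37), chr5:87092556-87092655 (Ugt2b36) and chr5:86926531-86926630 (Ugt2b1).
Ugt2b5: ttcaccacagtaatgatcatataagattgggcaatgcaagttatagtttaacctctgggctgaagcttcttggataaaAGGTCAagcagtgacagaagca
Ugt2b38: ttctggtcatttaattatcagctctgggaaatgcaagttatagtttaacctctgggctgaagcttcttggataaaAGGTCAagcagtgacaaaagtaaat
Ugt2b37: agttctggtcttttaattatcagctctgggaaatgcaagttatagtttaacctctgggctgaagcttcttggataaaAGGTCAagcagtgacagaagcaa
Ugt2b36: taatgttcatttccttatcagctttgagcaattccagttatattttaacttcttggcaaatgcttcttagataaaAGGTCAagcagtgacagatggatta
Ugt2b1: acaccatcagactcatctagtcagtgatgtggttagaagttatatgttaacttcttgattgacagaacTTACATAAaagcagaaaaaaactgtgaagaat

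Both strands of the 300-base windows were searched for 6 motifs. AGGTCA was present in 5 of the 8 genes (Ugt2b5, Ugt2b35, Ugt2b36, Ugt2b37 and Ugt2b38) and in 16.3% of 32851 promoters. Its first base lay at -215 from the RefSeq start in Ugt2b35, -22 in Ugt2b5, -25 in Ugt2b36 and Ugt2b38 and -39 in Ugt2b37. The printed stretch of Ugt2b37 stops 16 bases short of its RefSeq start. Around AGGTCA the printed stretches of Ugt2b5, Ugt2b36, Ugt2b37 and Ugt2b38 are much alike, so their matches are not independent. The D-box TTATGNAA was present in Ugt2b1 alone and in 3.38% of all promoters. GTTAAT, part of the site of the hepatocyte factor HNF1, was present in Ugt2a3 alone, in 2 copies, and in 7.1% of all promoters. The E-box CACGTG (7.15% of promoters), the full HNF1 site (0.061%), which begins with the same 6 letters, and CAAAGTCCA, a site of HNF4 (0.475%), were in none of the 8 windows. A match is a matter of letters only, and its absence covers this window only. Sites that differ from these letters were not sought, so a gene without a match can still hold a variant site.

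The labels were checked before the genes were compared. Totals ran from 17369927 to 22076113 counts per library. Hepatocyte markers were abundant in all libraries, with 6 of 7 markers found in the table by name and none at 0. Bmal1, listed as Arntl, ran from 0.623 to 39.8 CPM (counts per 1000000 after TMM scaling) over SPF WT, from 8.48 to 29 over SPF LKO, from 0.331 to 40.8 over GF WT and from 7.01 to 13.4 over GF LKO, and since counts cover the whole gene, they do not show whether the deleted part is present. Npas2, a clock gene related to Clock, ran from 0 to 12.9 CPM over all WT livers and from 14.3 to 44.6 over all LKO livers but 2, the libraries labelled SPF LKO ZT14 replicate 2 (0.22) and SPF LKO ZT18 replicate 1 (1.81). Alb, the gene of albumin, separated the same libraries. It reached 83003 and 101237 CPM in these 2, from 24745 to 50411 in the other 16 SPF LKO livers and from 25437 to 43321 in GF LKO livers, against 59408 to 105935 in SPF WT and 85942 to 136018 in GF WT. In 2 further libraries Arntl went against the labelled time: the library labelled SPF WT ZT14 replicate 3 had 2.12 CPM (15.9 and 19.4 in the other 2) and that labelled replicate 3 of GF WT at ZT6 had 8.19 (1.62 and 2.43). All 4 were kept, and values without them are given where they matter.

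Levels of the 8 genes were compared per exon length. In SPF WT livers Ugt2b5 stood highest at 542 ± 94.6 CPM per 1000 bases (mean ± SD, n = 18), then Ugt2b36 (478 ± 70.9) and Ugt2b1 (477 ± 130). The ranges of mean ± SD of these 3 overlap. All genes were measured in the same livers, and differences between genes within livers were not tested. Ugt2b34 (219 ± 34.7) and Ugt2a3 (218 ± 41.1) followed, again with overlapping ranges, then Ugt2b35 (108 ± 18.5), Ugt2b38 (12.2 ± 5.05) and Ugt2b37 (1.63 ± 0.922). In GF LKO livers Ugt2b1 was first at 978 ± 253 CPM per 1000 bases, with Ugt2b36 at 561 and Ugt2b5 at 549. Ugt2b1 thus made up 23.2% of the summed level of the 8 genes per length in SPF WT, 28.1% in SPF LKO, 29% in GF WT and 37.6% in GF LKO. Divided by windows found in no other gene instead of by length, Ugt2b5 came first in SPF WT, SPF LKO and GF WT (38.2%, 35.3% and 35.6% of the 8 genes) and Ugt2b1 in GF LKO (32.6%). Unscaled by length, the 8 genes together held 0.502% of the scaled counts in SPF WT (5015 ± 744 CPM, n = 18), 0.568% in SPF LKO, 0.536% in GF WT and 0.629% in GF LKO (6290 ± 1052).

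**Figure D2:**
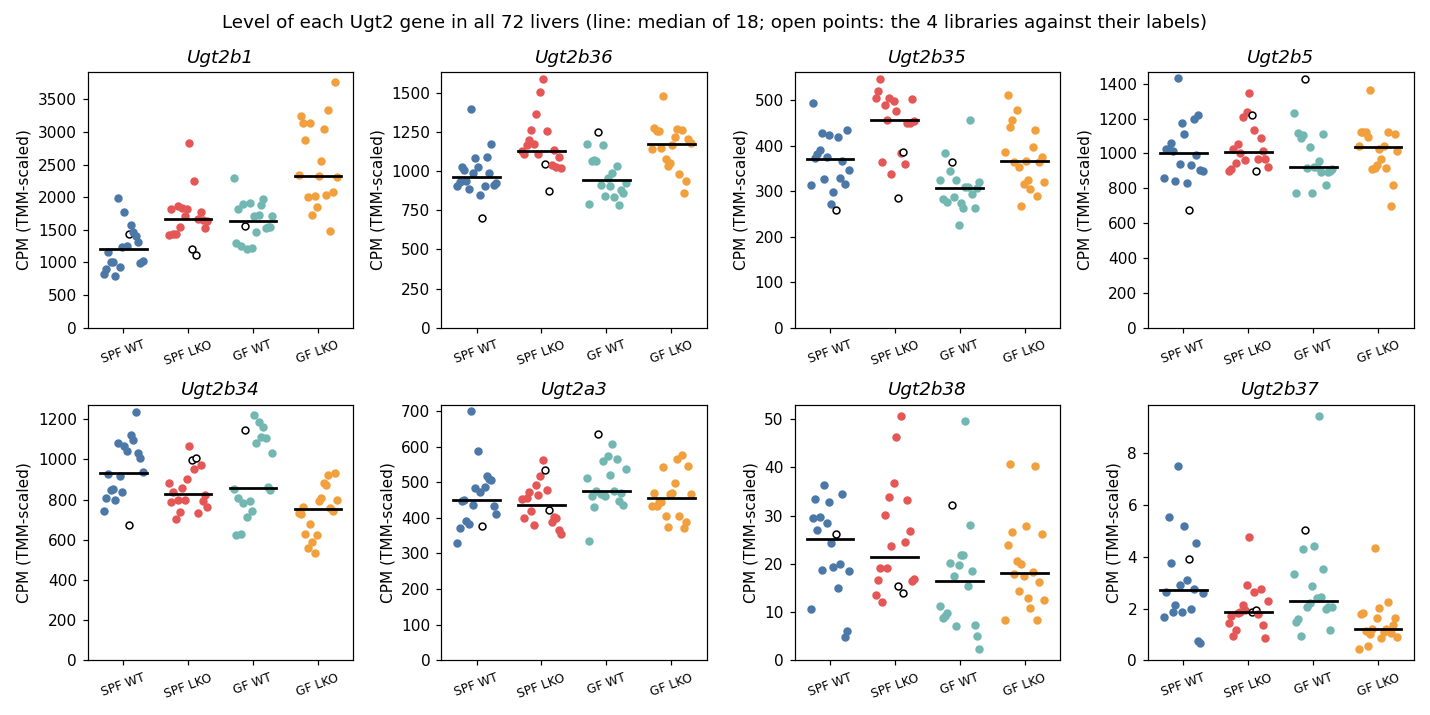
Level of each Ugt2 gene (CPM, TMM-scaled, linear axes from 0) in each of the 72 livers, by condition, with livers ordered by ZT within a condition. Lines are medians of 18 livers and open points the 4 libraries that went against their labels. Ugt2b1 has its lowest median in SPF WT (1205 CPM), like medians in SPF LKO (1663) and GF WT (1636) and its highest in GF LKO (2331), while Ugt2b5 and Ugt2a3 have medians close together in all 4 conditions.

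The first comparison asked whether loss of hepatic Bmal1 changed the Ugt2 genes in mice with a microbiota. Ugt2b1, Ugt2b35 and Ugt2b36 were higher in SPF LKO than in SPF WT livers, by 1.38, 1.22 and 1.19 fold, and none of the other 5 passed the test. In this comparison 11.6% of the 13159 genes tested were called higher and 11.5% lower at an adjusted p under 0.05 (edgeR quasi-likelihood test on 18 against 18 livers, ZT pooled, Benjamini-Hochberg adjustment), against 3 and 0 of the 8 members. The median log2 change was 0.08 over the 8 genes and -0.005 over all genes tested.

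Ugt2b1 ran from 790 to 1995 CPM in SPF WT (median 1205) and from 1117 to 2825 in SPF LKO (median 1663). The ranges overlapped, with 2 of 18 SPF LKO livers above all SPF WT livers and 16 of 18 above the SPF WT median, and the mean was higher in LKO at 6 of 6 ZT. The log2 change was 0.47 ± 0.11 (SE, adjusted p = 0.00202). Both lowest SPF LKO values, 1117 and 1201 CPM, belonged to the 2 libraries with low Npas2 and high Alb, and without the 4 doubted libraries the log2 change was 0.54 ± 0.11 (adjusted p = 0.000323).

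Ugt2b35 ran from 259 to 493 CPM in SPF WT (median 369) and from 285 to 546 in SPF LKO (median 456), with 6 of 18 LKO livers above all WT livers. Its log2 change was 0.29 ± 0.08 (adjusted p = 0.0089), and again the mean was higher in LKO at 6 of 6 ZT. Ugt2b36 ran from 702 to 1394 CPM in SPF WT (median 961) and from 871 to 1588 in SPF LKO (median 1131). It rose by 0.25 ± 0.07 on the log2 scale (adjusted p = 0.00808), with 17 of 18 LKO livers above the WT median.

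Ugt2b34 and Ugt2b37 had values below 0 that lay near the threshold. Ugt2b34 ran from 672 to 1238 CPM in SPF WT (median 935) and from 703 to 1069 in SPF LKO (median 830), a log2 change of -0.14 ± 0.07 that missed the threshold (adjusted p = 0.131). Without the 4 doubted libraries it passed (-0.20 ± 0.07, adjusted p = 0.02). Ugt2b37 is barely counted, at 8 to 150 counts per library, and had a log2 change of -0.61 ± 0.23 (adjusted p = 0.0506). It passed under DESeq2 (-0.62, adjusted p = 0.0394) but not without the 4 doubted libraries (-0.58 ± 0.25, adjusted p = 0.0789). Ugt2b5 (0.05, 95% interval -0.09 to 0.19), Ugt2a3 (-0.06, -0.21 to 0.09) and Ugt2b38 (0.11, -0.31 to 0.53) had intervals that include 0, and for the first 2 these leave out changes over 0.21 on the log2 scale.

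The second comparison asked the same in germ-free mice. The same 3 genes were higher in GF LKO than in GF WT livers, Ugt2b1 by 1.54, Ugt2b35 by 1.21 and Ugt2b36 by 1.19 fold, and Ugt2b34 and Ugt2b37 were lower. Of the 12662 genes tested, 15.6% were called higher and 15.2% lower, against 3 and 2 of the 8 members, with a median log2 change of 0.15 over the members and 0.008 over all genes.

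Ugt2b1 ran from 1203 to 2299 CPM in GF WT (median 1636) and from 1477 to 3773 in GF LKO (median 2331). Of the GF LKO livers 11 of 18 were above all GF WT livers, and at 4 of 6 ZT the 3 LKO livers were all above the 3 WT livers. The log2 change was 0.63 ± 0.10 (adjusted p = 8.59e-06). Ugt2b35 ran from 226 to 457 CPM in GF WT and from 268 to 512 in GF LKO, with medians of 307 and 366 (log2 change 0.28 ± 0.08, adjusted p = 0.00782). Ugt2b36 ran from 780 to 1248 and from 858 to 1478 CPM, with medians of 940 and 1171 (0.26 ± 0.07, adjusted p = 0.00215). Each of the 3 had a higher mean in LKO at 6 of 6 ZT, and the ranges of each overlapped.

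Ugt2b34 ran from 626 to 1219 CPM in GF WT (median 859) and from 536 to 934 in GF LKO (median 752). It was lower in LKO at 6 of 6 ZT and fell by 0.32 ± 0.09 on the log2 scale (adjusted p = 0.0063). Ugt2b37 ran from 0.959 to 9.42 CPM in GF WT (median 2.3) and from 0.423 to 4.34 in GF LKO (median 1.21), and 1 of 18 LKO livers was above the WT median. Its fitted level in GF LKO was 0.5 of that in GF WT (SE of the log2 change 0.25, adjusted p = 0.00211), the largest change of any member in size, from counts of 8 to 150 per library. Ugt2b5 (0.05 ± 0.07), Ugt2a3 (-0.10 ± 0.07) and Ugt2b38 (0.26 ± 0.26) did not pass.

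**Figure D3:**
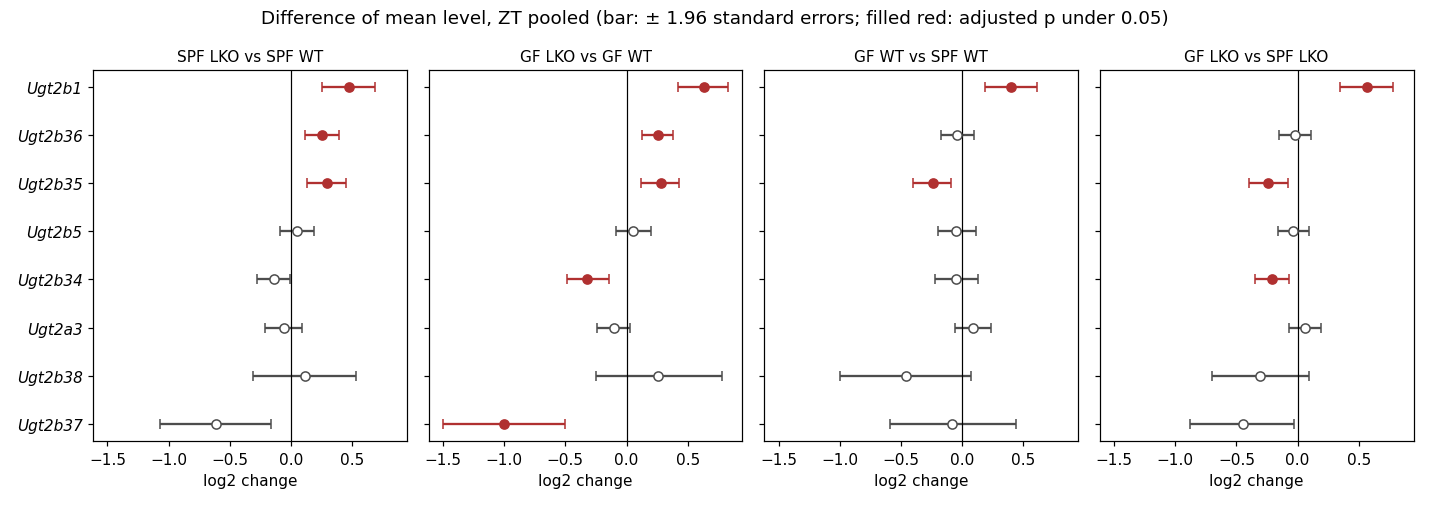
Log2 change of each Ugt2 gene in the 4 pairwise comparisons (ZT pooled, 18 livers against 18). Bars are 95% intervals and filled red points have an adjusted p under 0.05. Ugt2b1 is above 0 in all 4 panels, Ugt2b35 is above 0 for LKO against WT and below 0 for GF against SPF, and Ugt2b36 is away from 0 only in the 2 panels of genotype, a contrast between panels that was not tested.

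The remaining comparisons asked what the absence of microbes changed, first in WT and then in LKO livers. They share their samples with the first 2, so the 4 sets of values are not independent. Ugt2b1 was higher without microbes in both genotypes, by 1.32 fold in WT and 1.48 fold in LKO, and Ugt2b35 was lower in both, at 0.844 and 0.846 of the SPF level. Ugt2b34 was lower in LKO livers, at 0.865 of the SPF level. In WT livers 14.2% of 12776 genes were called higher and 17.7% lower in GF, against 1 and 1 of the 8 members. In LKO livers 18.1% of 13010 genes were called higher and 18.4% lower, against 1 and 2. The median log2 change of the members was -0.05 in WT and -0.12 in LKO, beside -0.020 and -0.017 over all genes.

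For Ugt2b1, 17 of 18 GF WT livers were above the SPF WT median and 17 of 18 GF LKO livers above the SPF LKO median, and in both genotypes the mean was higher in GF at 6 of 6 ZT. The log2 changes were 0.40 ± 0.11 (adjusted p = 0.00409) in WT and 0.57 ± 0.11 (adjusted p = 0.000136) in LKO. By ZT, the log2 ratio of the GF to the SPF mean was highest at ZT2 (0.91 in WT and 0.90 in LKO) and lowest at ZT10 (0.06 in both), a description with 3 livers per mean. Of the 6 hepatocyte markers, 6 were called higher in GF WT against SPF WT (median log2 change 0.33), and 3 higher and 1 lower in GF LKO against SPF LKO (0.23), and their part in the changes of Ugt2b1 was not tested. From SPF WT to GF LKO the mean of Ugt2b1 went from 1228 to 2516 CPM, a ratio of 2.05, and 15 of 18 GF LKO livers were above all SPF WT livers.

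Ugt2b35 was higher with the loss of Bmal1 and lower with the absence of microbes. In WT livers 2 of 18 GF values were above the SPF median and the log2 change was -0.24 ± 0.08 (adjusted p = 0.0168). In LKO livers 3 of 18 were above it and the change was -0.24 ± 0.08 (adjusted p = 0.0197). The mean was lower in GF at 5 and at 6 of 6 ZT. Without the low-count filter the WT call was lost (adjusted p = 0.073).

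Ugt2b34 fell in GF LKO against SPF LKO by 0.21 ± 0.07 on the log2 scale (adjusted p = 0.0166), with 6 of 18 GF livers below all SPF livers and at 4 of 6 ZT no overlap between the 3 and 3. In WT its log2 change was -0.05 ± 0.09 (adjusted p = 0.702). With ZT as a covariate it was -0.06 (adjusted p = 0.515), and without the 4 doubted libraries -0.09 (adjusted p = 0.433). Only with both joined, a setting chosen after seeing the data, did it pass (-0.14, adjusted p = 0.0301). Ugt2b36 had log2 changes of -0.04 (95% interval -0.17 to 0.10) in WT and -0.02 (-0.15 to 0.11) in LKO, and Ugt2b5 of -0.05 (-0.20 to 0.11) and -0.04 (-0.16 to 0.09). Ugt2a3 had 0.09 and 0.06. Ugt2b38 had -0.46 ± 0.27 in WT (adjusted p = 0.188), which passed with ZT as a covariate (-0.59, adjusted p = 0.0294), and Ugt2b37 had -0.45 ± 0.22 in LKO (adjusted p = 0.0973).

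Whether the genotype changed a gene by a different amount in GF and SPF mice was tested on all 72 libraries. No member passed, by edgeR (adjusted p of 0.907 to 1) or DESeq2, and 0 of the 8 had an unadjusted p under 0.05, beside 876 of all 13484 genes. Of these genes 0.438% were called. For Ugt2b1 the difference of the 2 log2 changes was 0.15 (95% interval -0.16 to 0.45), for Ugt2b36 -0.00 (-0.19 to 0.19) and for Ugt2b35 -0.02 (-0.24 to 0.21).

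Rhythms of 24 h were tested in each condition with a cosine and a sine of ZT. Of 14636 genes, 22.0% were called rhythmic in SPF WT, 23.2% in SPF LKO, 29.8% in GF WT and 29.6% in GF LKO. Of the 8 members, 2 were called in SPF WT (Ugt2b1 and Ugt2b34), 0 in SPF LKO, 2 in GF WT (Ugt2b34 and Ugt2b38) and 1 in GF LKO (Ugt2b34), shares near or below the background. Unadjusted, 7 of the 8 had p under 0.05 in SPF LKO, beside 5443 of the 14636 genes, and 2 were called by DESeq2.

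**Figure D4:**
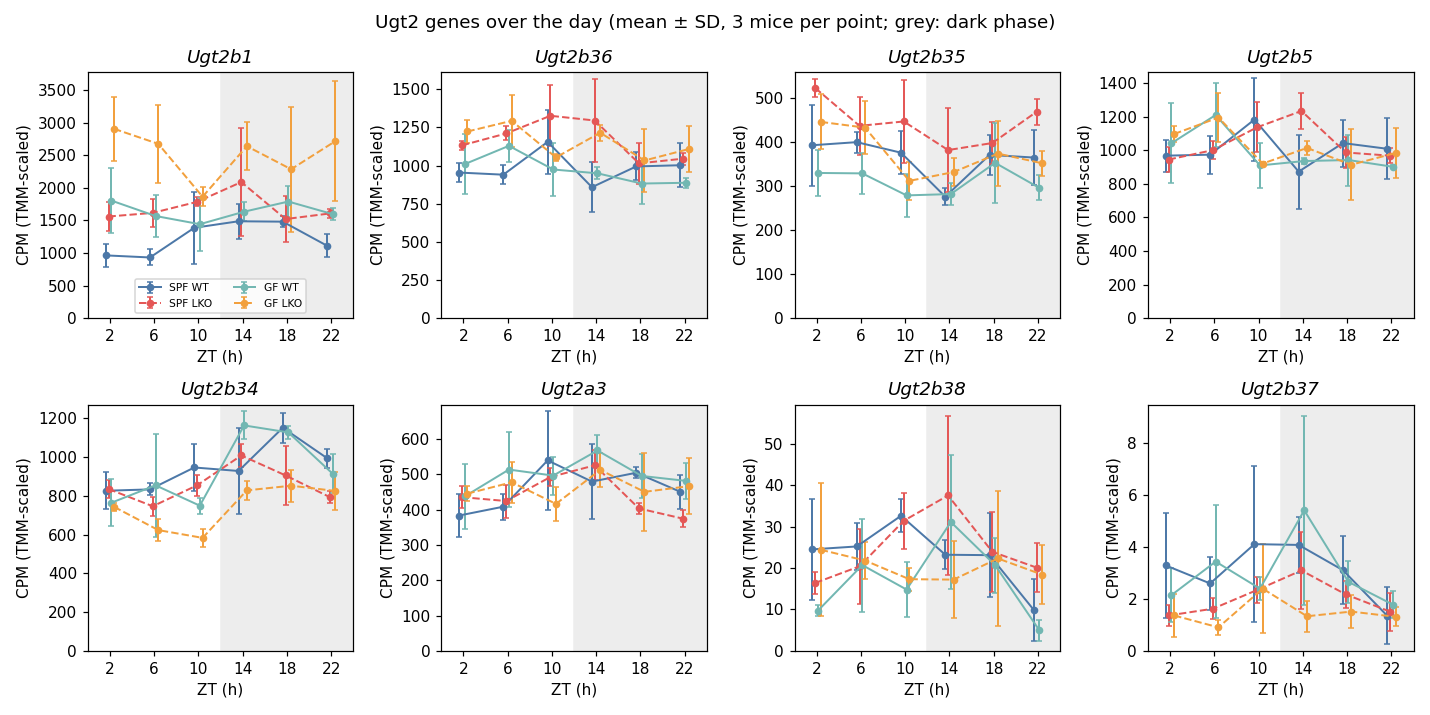
Level of each Ugt2 gene by ZT (CPM, TMM-scaled, mean ± SD of 3 livers per point, linear axes from 0), with the dark phase in grey and LKO dashed. Ugt2b34 has its highest mean at ZT14 or ZT18 in each condition. Ugt2b38 in GF WT has its highest mean at ZT14 (31.1 CPM) and its lowest at ZT22 (4.96 CPM).

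Ugt2b34 kept the most regular course. In SPF WT its mean went from 826 ± 94.6 CPM (n = 3) at ZT2 to 1151 ± 76.4 at ZT18, and the fitted peak was at ZT17.4 with a peak to trough ratio of 1.31 (adjusted p = 0.0421). In GF WT it went from 749 ± 40.5 at ZT10 to 1163 ± 72.4 at ZT14, with a fitted peak at ZT16.7 and a ratio of 1.5 (adjusted p = 0.000431). In GF LKO it went from 583 ± 44.9 at ZT10 to 852 ± 82.4 at ZT18, with a fitted peak at ZT19.4 and a ratio of 1.47 (adjusted p = 0.00167). At ZT10 all 3 GF LKO livers (588, 536 and 626 CPM) were below all 3 GF WT livers (712, 792 and 743). In SPF LKO the adjusted p was 0.11, with a fitted peak at ZT15.2. Without the 4 doubted libraries the 3 calls held, with adjusted p of 0.00049 in SPF WT, 2.06e-08 in GF WT and 3.85e-05 in GF LKO. Each was lost when a replicate number was left out at all ZT. In SPF WT this was so without replicate 1 (adjusted p = 0.184) or 2 (0.211). In GF WT it was so without replicate 1 (0.0602) or 2 (0.0562), and in GF LKO without replicate 2 (0.221).

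Ugt2b1 was rhythmic in SPF WT, with 932 ± 123 CPM at ZT6 and 1488 ± 265 at ZT14 (fitted peak at ZT15.0, ratio 1.7, adjusted p = 0.0116). That call was lost without replicate 1 (adjusted p = 0.123) or replicate 3 (0.0624) at all ZT. In the other 3 conditions the adjusted p was 0.397 (SPF LKO), 0.693 (GF WT) and 0.29 (GF LKO). Ugt2b38 in GF WT had values of 7.34, 5.16 and 2.37 CPM at ZT22 and of 21.9, 21.8 and 49.7 at ZT14. It had a fitted peak at ZT12.1 and a ratio of 3.55 (adjusted p = 0.00755), a call lost without replicate 3 at all ZT (adjusted p = 0.14). In GF LKO the ZT means of Ugt2b38 lay between 17.2 and 24.4 CPM, with an adjusted p of 0.781. Ugt2a3 missed the threshold in SPF WT (adjusted p = 0.0602) and passed with the 4 doubted libraries left out (0.00696) or with replicate 3 of SPF WT at ZT14 alone left out (0.00908).

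Differences in rhythm were tested directly, and no member passed in any of the 4 pairs (adjusted p of at least 0.0737). Over all genes 1.62% were called for SPF LKO against SPF WT, 5.40% for GF LKO against GF WT, 0.0342% for GF WT against SPF WT and 2.58% for GF LKO against SPF LKO, and DESeq2 called 0 members in each. At an unadjusted p under 0.05 there were 0, 1, 1 and 3 of the 8, beside 2052, 2629, 2005 and 2883 of the 14636 genes. The lowest value, adjusted p = 0.0737, was that of Ugt2b38 between GF LKO and GF WT, which passed with replicate 3 of GF WT at ZT6 left out (adjusted p = 0.0455) and without all 4 doubted libraries (0.0313). For Ugt2b1, called rhythmic in SPF WT alone, the test of the difference itself gave adjusted p of 0.535 for SPF LKO against SPF WT and 0.281 for GF WT against SPF WT.

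The members varied together from liver to liver, some pairs closely and others weakly. After the mean of each condition and ZT was taken out of log2 CPM, Pearson's r over the 72 libraries was 0.90 for Ugt2b5 and Ugt2b36, 0.83 for Ugt2a3 and Ugt2b5, 0.80 for Ugt2b1 and Ugt2b36 and 0.20 for Ugt2a3 and Ugt2b38, the lowest of the 28 pairs. Ugt2b37 and Ugt2b38, both scarce and alike in sequence, had 0.68. These are descriptions, since the points share the scaling of each library, and Ugt2b5, Ugt2b37 and Ugt2b38 can also exchange reads.

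Genes outside the family were named by likeness over the 24 means of condition and ZT (Pearson's r of log2 CPM, the 2 highest among genes with at least 10 counts on average). For Ugt2b1 they were Cyp2c70 (r = 0.95), which makes muricholic acids, the bile acids typical of mice, and Hgd (0.94), an enzyme of tyrosine breakdown. Mean Cyp2c70 went from 870 CPM in SPF WT over 1430 in SPF LKO and 1404 in GF WT to 2441 in GF LKO. For Ugt2b34 they were Homer1 (0.89) and Fmo5 (0.88), a flavin monooxygenase, for Ugt2b36 Tusc3 (0.86) and Gas5 (0.82), for Ugt2b35 S1pr2 (0.85), a receptor of sphingosine 1-phosphate, and Ubtd2 (0.84), and for Ugt2b37 Ivns1abp (0.88) and Rhbdd2 (0.87). The likeness was lower for Ugt2b38 (Ces2b at 0.79 and Cadm4 at 0.75) and for Ugt2b5 (Rida at 0.75 and Btf3l4 at 0.73), and Ugt2a3 had Cgrrf1 and Gid8, both at 0.84.

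Among 14 other UDP-glycosyltransferase genes, which included Ugt2a1 and Ugt2a2, 7 or 8 were tested per comparison. In SPF LKO against SPF WT 1 was higher and 2 lower (median log2 change -0.39), and in GF LKO against GF WT 1 was higher and 4 lower (-0.29). GF against SPF gave 2 higher and 2 lower in WT (0.07) and 2 higher and 4 lower in LKO (-0.34). The largest decrease was that of Ugt1a9, from 40.1 to 12.5 CPM in SPF (log2 change -1.68 ± 0.26, adjusted p = 5.60e-06) and from 26.2 to 2.63 in GF LKO against GF WT (-3.31 ± 0.19, adjusted p = 4.81e-17). It was the 1 gene of this list whose genotype effect differed between GF and SPF (-1.63 ± 0.33, adjusted p = 0.0031). Ugt3a2 had the largest increase in both genotype comparisons (0.19 ± 0.07 in SPF, adjusted p = 0.0373). The Ugt1a genes share their last exons, and reads there were left out, so their counts come from the first exon of each.

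The supply of UDP-glucuronic acid was followed with 7 genes, all tested. In SPF LKO against SPF WT 1 was higher and 0 lower (median 0.05): Ugp2, which makes UDP-glucose, rose by 0.26 ± 0.08 (adjusted p = 0.013). In GF LKO against GF WT 1 was higher and 2 lower (0.01), with Pgm2 up by 0.38 and Slc35d1, which carries UDP-glucuronic acid into the endoplasmic reticulum, at -0.29 (adjusted p = 0.000103). GF against SPF gave 2 higher and 0 lower in WT (0.21) and 3 higher and 1 lower in LKO (0.11), with Slc35b1 the largest increase in both (0.29 and 0.39). Of the 3 genes that lead from glucuronate to ascorbate, 2 were higher in each genotype comparison and 3 in each comparison of GF with SPF. Gulo, the last enzyme of ascorbate synthesis, led in all 4, from 470 CPM in SPF WT to 584 in SPF LKO, 679 in GF WT and 838 in GF LKO (log2 changes of 0.32, 0.31, 0.51 and 0.52, adjusted p of 0.00072 or lower).

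Of 9 genes for the transport and hydrolysis of glucuronides, 1 was higher and 3 lower in SPF LKO against SPF WT (median log2 change -0.20) and 1 higher and 4 lower in GF LKO against GF WT (-0.22). Slco1a4, an uptake transporter, rose most in both (0.84 ± 0.12 and 0.85 ± 0.13), Slco1a1 fell most in SPF (-0.28, adjusted p = 0.00905) and Gusb, the host beta-glucuronidase, in GF (-0.35, adjusted p = 0.00111). GF against SPF gave 1 higher and 1 lower in WT (-0.01) and 2 higher and 2 lower in LKO (-0.06). Slco1a1 had the largest increase in both (0.28 and 0.31) and Abcc3, which exports glucuronides to the blood, the largest decrease in both (-0.32 and -0.45).

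Of 18 transcription factors of drug metabolism, 0 were higher and 4 lower in SPF LKO against SPF WT (median -0.10), and 1 higher and 6 lower in GF LKO against GF WT (-0.16). Dbp, a D-box binding factor under control of the clock, fell most in both, from 23.1 to 4.73 CPM (log2 change -2.29 ± 0.53) and from 22.3 to 3.22 (-2.78 ± 0.57). Stat5b, a mediator of growth hormone, rose in GF LKO against GF WT (0.54 ± 0.13, adjusted p = 0.0011). GF against SPF gave 1 higher and 1 lower in WT (-0.01), Ahr at 0.35 and Nfe2l2 at -0.28, and 2 higher and 4 lower in LKO (-0.06), Stat5b at 0.30 and Ppara at -0.37 the largest.

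Markers of liver cells moved with some of the groups. Of the 6 hepatocyte markers 0 were called higher and 1 lower in SPF LKO against SPF WT, and 1 higher and 3 lower in GF LKO against GF WT. All 5 Kupffer cell markers were counted in every library, with a summed level of 197 to 490 CPM in SPF WT, 189 to 298 in SPF LKO, 160 to 309 in GF WT and 125 to 272 in GF LKO, and 3 of 5 were called lower in SPF LKO against SPF WT and 1 of 5 in each comparison of GF LKO livers. The 5 cholangiocyte markers summed to 33.6 to 98.2, 31.1 to 136, 27.1 to 58.2 and 45.1 to 164 CPM in the same order, with 2 of 5 called higher in GF LKO against GF WT, 1 higher in SPF LKO against SPF WT, and 2 lower in GF WT and 1 lower in GF LKO against SPF. The 5 stellate cell markers summed to 247 to 458 CPM over all libraries, with 2 of 5 called higher in GF LKO against GF WT and 1 higher in SPF LKO against SPF WT and in GF LKO against SPF LKO. The 5 endothelial markers summed to 121 to 203 CPM, with 1 called higher and 2 lower in GF WT against SPF WT, 1 higher and 1 lower in GF LKO against SPF LKO, 1 lower in SPF LKO against SPF WT and 1 higher in GF LKO against GF WT. No marker was at 0 throughout. The part of these markers, and of the lower Alb of LKO livers, in the changes of the Ugt2 genes was not tested, and in whole tissue fewer cells of a type and less RNA per cell cannot be told apart.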

How the data were processed

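Livers of 72 mice were analysed, 18 per condition. The authors deposited raw counts of reads per gene. They sequenced stranded mRNA libraries from a single end, aligned the reads with STAR 2.6.1b to mm10 (GRCm38) and counted exons with featureCounts 2.0.0 and the Ensembl release 97 annotation, without strand and without reads that fell on several places or genes. Groups, ZT and replicate numbers came from the labels, and 0 columns were unused.

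Counts were scaled with TMM and tested with edgeR 4.0.16 (R 4.3.3): low-count filter, quasi-likelihood test, Benjamini-Hochberg adjustment over all genes tested, and calls at 0.05. Each pair was fitted on its 36 libraries with ZT pooled, the interaction and the rhythms on all 72. DESeq2 1.42.0, median-of-ratios scaling, no filter, ZT as a covariate, a replicate block and libraries left out were alternatives. The scripts were tested on simulated data. Python 3.11.15, pandas 2.3.3 and Biopython 1.88 served for the rest, and exons came from GENCODE vM21. Intervals are normal approximations from the standard error.

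The members and lists were chosen with earlier results of these data known. Named genes were the 8 members, the 2 genes outside the Ugt families most like each member with at least 10 counts on average, and the called gene with the largest increase and decrease in each list. Arntl, Npas2 and Alb were named for the labels.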

Additional observations from a re-analysis of the deposited data

How the results depend on the processing

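Of the called changes in the mean level of a member, none reversed under any alternative. Under DESeq2, median-of-ratios scaling, no filter, ZT as a covariate, the replicate block and the exclusion of the 4 doubted libraries, all calls of Ugt2b1, Ugt2b36, Ugt2b34 and Ugt2b37 held, and 1 call of Ugt2b35 did not. The members called lower in SPF LKO against SPF WT went from 0 to 1 under DESeq2, median-of-ratios scaling, ZT as a covariate (Ugt2b37) or without the 4 doubted libraries (Ugt2b34), and to 2 with the last 2 settings joined. Those called lower in GF WT against SPF WT went from 1 to 0 without the filter (Ugt2b35, adjusted p = 0.073), to 2 with ZT as a covariate (Ugt2b38) and to 3 when the 4 libraries were also left out. Members called rhythmic in SPF LKO went from 0 to 2 under DESeq2 and without the 4 libraries (there Ugt2b36 and Ugt2b38), in SPF WT from 2 to 3 without them (Ugt2a3) and in GF LKO from 1 to 2 without them (Ugt2b35). Members with a called difference in rhythm between GF LKO and GF WT went from 0 to 1 (Ugt2b38) without the filter and without the 4 libraries.

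With the replicate block, the members called lower in GF WT against SPF WT went from 1 to 2 (Ugt2b38), and the block changed no other call of a member in the pairs, for which 3570, 4491, 4540 and 5046 genes were called, and 67 for the interaction. Replicate numbers share only a number: of 18 same-numbered pairs per comparison, 3 to 5 correlated over 0.1 and 3 to 6 correlated best with their own number.

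Leaving out a replicate number at all ZT, or singly a doubted library, gave 0 to 3 members higher in SPF LKO against SPF WT. It gave 0 to 2 lower in GF LKO against GF WT, 0 to 1 higher and 0 to 1 lower in GF WT against SPF WT, and 0 to 3 lower in GF LKO against SPF LKO. Rhythmic members numbered 0 to 3 in SPF WT, 0 to 2 in SPF LKO, 1 to 2 in GF WT and 0 to 1 in GF LKO, and differences in rhythm between GF LKO and GF WT 0 to 1. The calls of Ugt2b1 were lost without replicate 3 in SPF (0.42, adjusted p = 0.0697) and without replicate 2 in WT (0.30, adjusted p = 0.135). Every mean-level call of Ugt2b35, Ugt2b36, Ugt2b34 and Ugt2b37 was lost without at least 1 replicate number. That of Ugt2b37 in GF was lost without replicate 3 (-0.68, adjusted p = 0.0985). The call of Ugt2b35 in GF WT against SPF WT was lost without replicate 1, 2 or 3 (adjusted p of 0.0782, 0.0537 and 0.104). Each of these fits has fewer mice, and single doubted libraries changed no member's call in the pairs.

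Over all genes the same exclusions gave 1586 to 3514 calls for SPF LKO against SPF WT, 1674 to 4083 for GF WT against SPF WT, 2431 to 4896 for GF LKO against SPF LKO and 13 to 56 for the interaction. Genes called rhythmic numbered 1328 to 3596 in SPF WT, 635 to 3547 in SPF LKO, 2381 to 4696 in GF WT and 2216 to 4433 in GF LKO. Calls of a difference in rhythm numbered 60 to 266 between genotypes in SPF (392 without the 4 libraries, against 237), 192 to 856 between genotypes in GF, 1 to 20 between GF WT and SPF WT (50 under DESeq2, 39 without the filter and 70 without the 4 libraries, against 5) and 0 to 447 between GF LKO and SPF LKO (718 under DESeq2 and 139 without the 4 libraries, against 378). The cause of these shifts was not tested.

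A planned search for windows unique in the genome was not run, since no genome was used here, and windows unique among transcripts took its place. These windows, the exclusion of single libraries and the joined setting of ZT and the 4 libraries were chosen after seeing the data. Ugt2b37, with 8 to 150 counts per library, has the widest counting error of the members.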

Other observations

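The 18 other annotated genes of the cluster were hardly counted. Of these, 3 had no count in any library and 6 had at least 10 counts on average. The highest was the processed pseudogene Gm18635, at chr5:87014160-87015219, with 4.29 ± 1.04 CPM in SPF WT, 4.45 ± 1.22 in SPF LKO, 2.99 ± 0.888 in GF WT and 3.27 ± 1.04 in GF LKO (mean ± SD, n = 18). It begins shortly beyond the end of Ugt2b35, on the same strand. The processed pseudogene Gm20121 had a highest count of 120 and means of 0.29, 0.931, 0.385 and 0.663 CPM in the same order. These genes were chosen for their place in the cluster after their values were seen, and no test was run on them.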
